A study of Mus musculus with 45 samples.

Results

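Islets of Langerhans of NZO/HlLtJ mice were compared with islets of CAST/EiJ mice, both kept on the 10% fat diet with fiber, the control diet of a study of diet and genotype in type 2 diabetes. Every library that the labels assign to islets, this diet and one of these strains was taken, which gave 14 of the 45 libraries in the series. NZO/HlLtJ (here NZO) had 7 libraries, 4 from females and 3 from males, and CAST/EiJ (here CAST) likewise had 7, 4 from females and 3 from males. The labels give the genotype as wild type and no treatment, and all of these mice started the diet at 6 weeks of age and were sampled at 16 weeks. The remaining libraries came from the high fat, high sugar diet or from C57BL/6J (B6), and the 8 B6 libraries on 10% fat are given as a further set of levels without a test. Each strain is 1 inbred line, so a strain difference sums every difference between the genomes and their physiology and points to no single locus. Whether each library is 1 mouse or a pool is not stated in the labels, and the p-values therefore cover only the variation among libraries, part of which may be technical.

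Islets are clusters of endocrine cells in the pancreas, mostly beta cells, which sense glucose and secrete insulin, with alpha cells that secrete glucagon, delta cells that secrete somatostatin, and smaller gamma and epsilon populations. The New Zealand Obese strain becomes obese through many loci, and its males are prone to diabetes, whereas CAST is a lean, wild-derived strain of the castaneus subspecies of house mouse. Beta cells under high secretory demand are known to engage the unfolded protein response of the endoplasmic reticulum, and beta cells that lose their mature identity are known to express genes such as Aldh1a3, an enzyme that makes retinoic acid.

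Polyadenylated RNA was sequenced, and the values are the authors' estimated counts per gene, given here as counts per 1e+06 counts (CPM) after scaling by the trimmed mean of M values (TMM). The 14 libraries held between 73760802 and 109950216 counts each, so that 3 counts corresponded to between 0.0274 and 0.0627 CPM. Strain was the main axis of variation: the first principal component carried 58.1% of the variance and separated all NZO from all CAST libraries, and the second carried 9.5%. The lowest correlation between libraries of 1 strain was 0.955, above the highest between strains, 0.935. Markers of the labelled tissue were present in every library, with Ins2 at 56957 to 94183 CPM in NZO libraries, against 51175 to 86545 CPM in CAST libraries. Mafa, a beta cell transcription factor, was at 55.7 to 163 CPM in NZO libraries, against 66.3 to 132 CPM in CAST libraries. Ddx3y, a Y-linked gene, was at 50.2 CPM or above in the male libraries and at 0.0182 CPM or below in the female ones. One library stood apart in composition, CAST female replicate 4, in which 53.5% of the counts came from 37 genes of acinar (exocrine) cells and 4.1% from the insulin genes. Its TMM factor was 0.491, against 0.94 to 1.17 in the others, and NZO male replicate 3 had the lowest median correlation with its own strain, 0.965. Counts of calls without one or both of these libraries are given with some, but not all, of the gene groups whose counts they moved.

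The summed share of counts from Ins1 and Ins2 did not differ between the strains beyond the spread between libraries. It ranged from 8.43% to 14.2% in NZO (median 11.8%) and from 4.1% to 15.1% in CAST (median 12.8%). The mean difference was 0.0597 percentage points, with a two-sided exact permutation p of 0.974 over 1400 relabellings within sex, where the smallest possible p was 0.00143. The acinar share ranged from 2.57% to 11.8% in NZO (median 5.86%) and from 0.0919% to 53.5% in CAST (median 5.84%), a difference of -4.87 points as the mean over the sexes (exact permutation p = 0.73). Without CAST female replicate 4 this difference was 0.942 points (exact permutation p = 0.639). The mean share was 5.36% in NZO females against 18.7% in CAST females, and 6.59% in NZO males against 2.98% in CAST males. Mitochondrially encoded genes took 1.69% to 3.12% of the counts in NZO and 1.21% to 2.95% in CAST, a difference of -0.191 points (exact permutation p = 0.513). Both strains thus overlapped in all 3 shares.

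**Figure D1:**
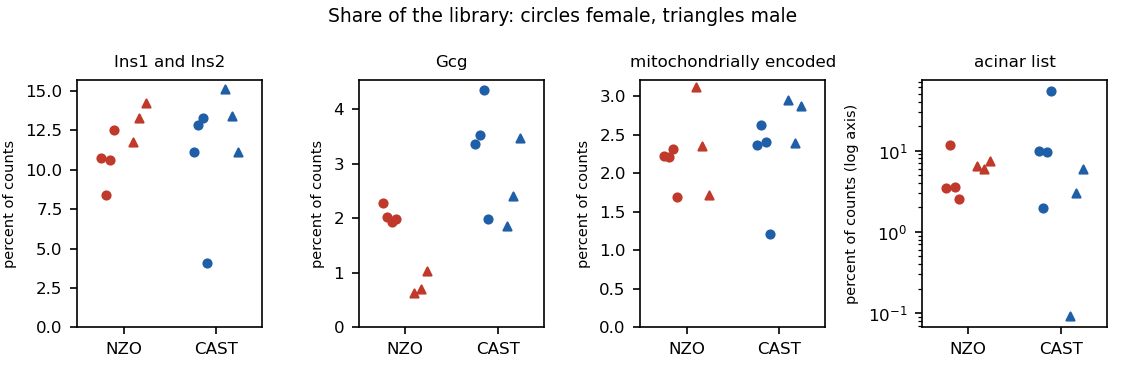
Share of each library's counts (percent, vertical axis) from the insulin genes, Gcg, the mitochondrially encoded genes and the acinar list, the last on a log axis, with NZO on the left and CAST on the right of each panel. Each point is 1 library; NZO and CAST overlap for insulin, mitochondrial and acinar shares, while the 3 NZO males hold the lowest Gcg shares and CAST female replicate 4 holds the highest acinar share, 53.5%.

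Of 18876 genes tested with edgeR's quasi-likelihood F test, with sex as a blocking factor, 9050 (47.9%) differed between NZO and CAST at a Benjamini-Hochberg adjusted p under 0.05. Of all genes tested, 4574 (24.2%) were higher in NZO and 4476 (23.7%) lower, and the median log2 fold change was -0.02. Scaling by library totals instead of TMM called 3660 higher and 2322 lower, a split of 61.2% higher against 50.5%. The median of all genes was then 0.08. A change of at least 2-fold was called for 3776 genes (20.0%), 1857 higher (9.84%) and 1919 lower (10.2%). All 7 NZO libraries lay above all 7 CAST libraries for 2124 genes (11.3%) and below them for 1900 (10.1%). Each group of genes below is read against these shares of 24.2% higher and 23.7% lower. Fold changes are NZO over CAST on the log2 scale throughout, with the standard error (SE) after ±.

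Among the islet hormones, the insulin genes gave no call, whereas ghrelin, neuropeptide Y and glucagon transcripts were lower in NZO and amylin was higher. Ins1 had 27609 to 57282 CPM in NZO libraries (median 40371) and 32340 to 52994 CPM in CAST libraries (median 47071), a log2 fold change of -0.18 ± 0.16 (adjusted p = 0.392), and Ins2 had a fold change of 0.02 ± 0.15 (adjusted p = 0.923). Iapp, which encodes amylin, the peptide co-secreted with insulin, had 15630 to 29361 CPM in NZO libraries (median 16972) and 9840 to 14836 CPM in CAST libraries (median 13830), a log2 fold change of 0.54 ± 0.15 (adjusted p = 0.00679). All NZO libraries lay above all CAST libraries for Iapp, although Iapp was not called in females alone. Of the 8 tested genes of prohormone processing, 6 were higher in NZO and 0 lower (median 0.40), among them Pcsk1 (0.57, adjusted p = 0.00108), a convertase that cleaves proinsulin, and Pam (0.54, adjusted p = 0.00231), which amidates peptide ends. With library totals for scaling, 3 of the 8 were called. In females alone 1 of the 8 was higher and 0 lower (median 0.26), and in males alone 4 were higher and 0 lower (median 0.59).

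Npy (ENSMUSG00000029819, chr6:49822710-49829507 in GRCm38), the gene of a neuropeptide that inhibits insulin secretion in rodent islets, showed the largest difference among the 28 beta cell identity genes. It was at 2.67, 1.82, 1.74 and 3.73 CPM in NZO females and 0.118, 1.61 and 1.85 CPM in NZO males, against 232, 210, 327 and 257 CPM in CAST females and 193, 170 and 106 CPM in CAST males. The fold change was -6.83 ± 0.46 (adjusted p = 6.22e-08), no library of one strain reached the range of the other, and B6 libraries lay between them at 5.53 to 12.5 CPM. Ghrl, which encodes ghrelin, the hormone of epsilon cells, was at 0.122, 0.429, 0.0678 and 0.0331 CPM in NZO females and 0.0538, 0.347 and 0.249 CPM in NZO males, against 4.82, 12.8, 39 and 11.2 CPM in CAST females and 19.7, 24.3 and 23.2 CPM in CAST males, a log2 fold change of -6.66 ± 0.62 (adjusted p = 1.94e-06). Every CAST library was thus above every NZO library, and B6 libraries had 3.05 to 13.5 CPM. Ghsr, the ghrelin receptor, was higher in NZO at 2.09 to 5.02 CPM in NZO libraries, against 1.74 to 2.93 CPM in CAST libraries (log2 fold change 0.70, adjusted p = 0.0125).

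Genes of beta cell identity divided into 5 higher and 11 lower among 28 tested, with a median log2 fold change of -0.26 and 4 of the lower ones past 2-fold. Without CAST female replicate 4, the one rich in acinar transcripts, 4 were higher and 15 lower, and with library totals 4 were higher and 7 lower. By sex, 3 were higher and 7 lower in females (median -0.2), and 0 were higher and 10 lower in males (median -0.33). The core transcription factors Mafa and Pdx1 gave no call, with 0.07 (adjusted p = 0.8) and -0.25 (adjusted p = 0.0905). Pdx1 was called lower without CAST female replicate 4, CAST male replicate 3 or NZO female replicate 2 (adjusted p = 0.0442, 0.0362 and 0.0416). Isl1, another endocrine transcription factor, was lower in NZO at 42 to 65.2 CPM in NZO libraries, against 76.3 to 114 CPM in CAST libraries, a log2 fold change of -0.70 ± 0.095 (adjusted p = 1.81e-05), with no overlap. Hnf4a, a nuclear receptor mutated in a monogenic form of diabetes, was higher (log2 fold change 0.63, adjusted p = 0.00572). Like every member of this list, Hnf4a was not called higher in males alone.

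Slc2a2 (ENSMUSG00000027690, chr3:28697903-28731359 in GRCm38) encodes GLUT2, the glucose transporter of rodent beta cells. It was at 628, 492, 589 and 495 CPM in NZO females and 573, 513 and 264 CPM in NZO males, against 1269, 1194, 1188 and 915 CPM in CAST females and 1472, 1120 and 842 CPM in CAST males, a log2 fold change of -1.18 ± 0.17 (adjusted p = 3.94e-05). All NZO libraries were below all CAST libraries, the lowest being NZO male replicate 3. G6pc2, an islet glucose-6-phosphatase that reverses the first step of glucose use, was higher in NZO, with 2100 to 2926 CPM in NZO libraries (median 2513) and 947 to 2322 CPM in CAST libraries (median 1485), a log2 fold change of 0.77 ± 0.15 (adjusted p = 0.00074). The strains overlapped for G6pc2, and this gene was not called higher in males alone.

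Receptors and channels that modulate secretion were more often lower than higher in NZO. Of 24 islet G protein-coupled receptors, 3 were higher and 11 lower (median -0.49), 7 of the lower ones past 2-fold. Over both sexes, the receptors of the incretin hormones moved in opposite directions. Gipr, the receptor of glucose-dependent insulinotropic polypeptide, had 22.4 to 55.9 CPM in NZO libraries (median 40.4) and 74.4 to 127 CPM in CAST libraries (median 97.1), a log2 fold change of -1.28 ± 0.17 (adjusted p = 1.23e-05), with no overlap. Glp1r, the receptor of glucagon-like peptide 1, had 80.7 to 212 CPM in NZO libraries (median 172) and 76.1 to 120 CPM in CAST libraries (median 88.1), a log2 fold change of 0.78 ± 0.17 (adjusted p = 0.00107). NZO male replicate 3 was the lowest NZO library for Glp1r and lay within the CAST range, and B6 libraries had 131 to 219 CPM. In males alone Glp1r was not called higher.

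Several other receptors were lower in NZO without overlap between strains. Gcgr, the glucagon receptor, was at 13.4 to 23.8 CPM in NZO libraries, against 31.2 to 51 CPM in CAST libraries (log2 fold change -1.23, adjusted p = 2.73e-07). Sstr2, a somatostatin receptor, was at 1.49 to 3.01 CPM in NZO libraries, against 3.18 to 8.86 CPM in CAST libraries (log2 fold change -1.50, adjusted p = 1.67e-05), and Htr1d, a serotonin receptor, at 0.0772 to 0.242 CPM in NZO libraries, against 1.33 to 2.21 CPM in CAST libraries (log2 fold change -3.37, adjusted p = 4.61e-08). Casr, the calcium-sensing receptor, had a fold change of -0.77 ± 0.13 (adjusted p = 0.000155). Galr1, a galanin receptor, was higher (log2 fold change 0.84, adjusted p = 0.000494).

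Of 24 ion channel and calcium pump genes of the secretory response, 4 were higher and 9 lower (median -0.28). Abcc8 and Kcnj11, the subunits of the ATP-sensitive potassium channel, gave no call (-0.17, adjusted p = 0.167, and 0.03, adjusted p = 0.795). Trpm5, a calcium-activated cation channel of beta cells, had 27 to 102 CPM in NZO libraries (median 82) and 198 to 327 CPM in CAST libraries (median 265), a log2 fold change of -1.96 ± 0.2 (adjusted p = 1.08e-06). The NZO males, at 59.7, 50.8 and 27 CPM, were the lowest of all, and no NZO library reached a CAST library. Kcnj5, a G protein-gated potassium channel subunit, was at 0.361 to 1.44 CPM in NZO libraries, against 13.9 to 37.8 CPM in CAST libraries (log2 fold change -4.63, adjusted p = 3.07e-08), and Cacna1a, the pore of a P/Q-type calcium channel, at 36.9 to 64.2 CPM in NZO libraries, against 96.2 to 139 CPM in CAST libraries (log2 fold change -1.15, adjusted p = 1.1e-06). In the other direction, Kcnk16, a potassium leak channel of islets, was at 102 to 159 CPM in NZO libraries, against 23.7 to 41.3 CPM in CAST libraries (log2 fold change 2.05, adjusted p = 5.83e-09). The sodium channels differed in sign, with Scn3a higher in NZO (1.35, adjusted p = 4.89e-09) and Scn9a lower (-0.91, adjusted p = 6.46e-08).

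**Figure D2:**
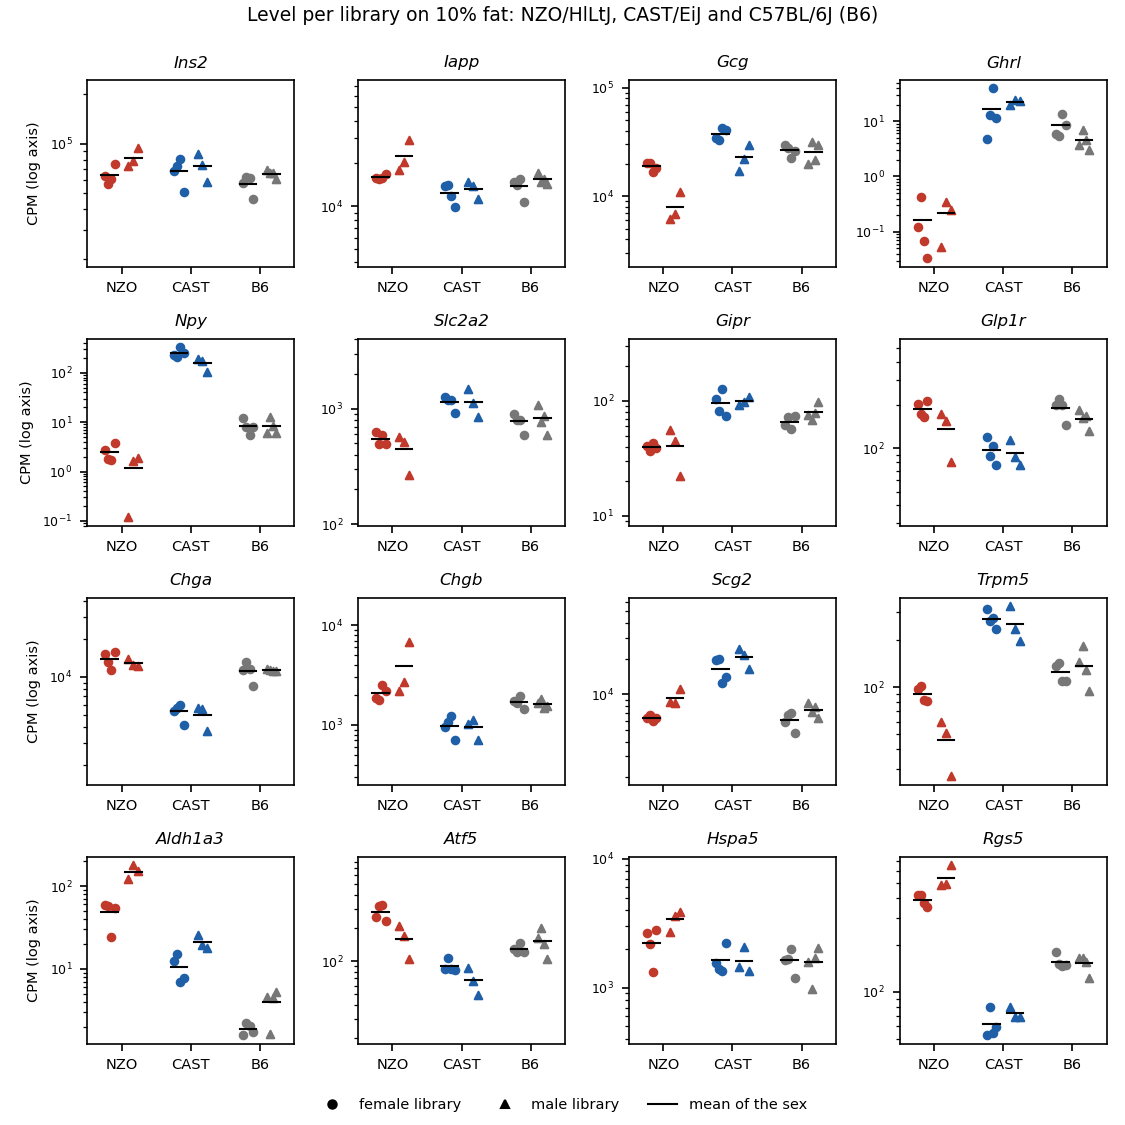
Level (CPM, log axis) of 16 named genes in each 10% fat library, with NZO, CAST and B6 from left to right, females as circles, males as triangles and the mean of each sex as a bar. Ins2 overlaps between NZO and CAST, Npy, Ghrl, Slc2a2, Gipr, Scg2 and Trpm5 are lower in every NZO library than in any CAST library, and Iapp, Chga, Chgb and Rgs5 are higher in every NZO library.

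The granins, proteins that build the dense core of hormone granules, moved in opposite directions. Chga had 11366 to 15848 CPM in NZO libraries (median 13251) and 3731 to 6016 CPM in CAST libraries (median 5551), a log2 fold change of 1.38 ± 0.14 (adjusted p = 7.65e-07). Chgb had 1788 to 6738 CPM in NZO libraries (median 2200) and 704 to 1228 CPM in CAST libraries (median 1019), a log2 fold change of 1.48 ± 0.26 (adjusted p = 0.000225). Scg2 had 5974 to 11024 CPM in NZO libraries (median 6630) and 12338 to 23930 CPM in CAST libraries (median 19325), a log2 fold change of -1.27 ± 0.15 (adjusted p = 3.77e-06). None of the 3 genes overlapped between strains: NZO held more Chga and Chgb transcripts and CAST more Scg2 transcripts. Of the 25 genes of granins and exocytosis, 6 were higher and 8 lower (median -0.01). Syt13, a synaptotagmin, was higher at 1158 to 1330 CPM in NZO libraries, against 356 to 711 CPM in CAST libraries (log2 fold change 1.23, adjusted p = 1.89e-06), while Snap25, a membrane fusion protein, was lower (log2 fold change -0.68, adjusted p = 1.09e-05). The calcium-dependent priming factors differed in sign, Cadps2 being higher (1.38, adjusted p = 2.45e-05) and Cadps lower (-0.75, adjusted p = 0.000142). Slc30a8, the zinc transporter of insulin granules, was lower at 261 to 595 CPM in NZO libraries, against 605 to 1018 CPM in CAST libraries (log2 fold change -0.59, adjusted p = 0.00841), but not with library totals (adjusted p = 0.12).

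Alpha cell genes were lower in NZO for 8 of 16 tested and higher for 2 (median -0.59). Gcg, which encodes glucagon, was at 20450, 20340, 16700 and 18300 CPM in NZO females and 6151, 6899 and 10910 CPM in NZO males, against 34320, 32920, 42800 and 40390 CPM in CAST females and 17200, 21880 and 29570 CPM in CAST males, a log2 fold change of -1.22 ± 0.18 (adjusted p = 3.53e-05). NZO females reached into the range of CAST males, but within each sex the strains did not overlap. Irx2, a transcription factor of alpha cells, was also lower (log2 fold change -1.16, adjusted p = 4.1e-06). Gc, a vitamin D binding protein made in alpha cells, was higher at 133 to 401 CPM in NZO libraries, against 43.9 to 111 CPM in CAST libraries (log2 fold change 1.45, adjusted p = 5.49e-06). In bulk islets, fewer cells of a type and less RNA per cell cannot be told apart. Delta cell genes gave 4 higher and 3 lower of 11, with no call for Sst, the somatostatin gene (log2 fold change -0.38, adjusted p = 0.0574) or Hhex, a delta cell transcription factor (log2 fold change 0.11, adjusted p = 0.479). Sst was called lower in 9 of the 26 alternatives. Among them were all 45 libraries in 1 model (adjusted p = 0.00348) and DESeq2 (adjusted p = 0.0209). Others were the fits without CAST female replicate 2, CAST female replicate 4 or NZO female replicate 4 (adjusted p = 0.0311, 0.0257 and 0.0419). The gamma cell hormone Ppy gave no call either (log2 fold change 0.50, adjusted p = 0.22).

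Markers linked to loss of beta cell maturity or to progenitors were higher in NZO for 6 of 12 tested, 5 of them past 2-fold, and lower for 2 (median 0.58). In females alone 3 of the 12 were higher and 2 lower (median 0.15), and in males alone 7 were higher and 1 lower (median 1.46). Aldh1a3 (ENSMUSG00000015134, chr7:66390890-66427517 in GRCm38) was at 59.5, 57.1, 24 and 54.7 CPM in NZO females and 120, 178 and 150 CPM in NZO males, against 12.6, 14.9, 7.01 and 7.71 CPM in CAST females and 25.8, 19.4 and 17.8 CPM in CAST males, a log2 fold change of 2.48 ± 0.24 (adjusted p = 1.41e-06). Within each sex every NZO library was above every CAST library, and B6 libraries had 1.58 to 5.31 CPM, below both strains. Smoc1, a secreted matrix protein, was at 22.8 to 37.5 CPM in NZO libraries, against 4.22 to 10.4 CPM in CAST libraries (log2 fold change 2.16, adjusted p = 5.17e-07), and Serpina7, a thyroxine carrier, at 14.7 to 65.7 CPM in NZO libraries, against 6.56 to 13.2 CPM in CAST libraries (log2 fold change 1.45, adjusted p = 4.12e-05). Hes1, a Notch target, was higher as well (log2 fold change 0.66, adjusted p = 0.00121). Gast, the gastrin gene, had 0.0774 to 2.36 CPM in NZO libraries (median 0.268) and 0.0222 to 0.176 CPM in CAST libraries (median 0.0627) (log2 fold change 2.29, adjusted p = 0.0207), and the strains overlapped. Without CAST male replicate 1, 2 or 3 the adjusted p for Gast was 0.059, 0.0534 or 0.0566. Ldhb, a lactate dehydrogenase subunit, was lower in NZO (log2 fold change -1.08, adjusted p = 1.47e-05). Of 26 genes kept at low levels in mature beta cells, 1 was higher (Rest, a transcriptional repressor, log2 fold change 0.56, adjusted p = 0.0236) and 5 lower, among them Slc16a1, a monocarboxylate transporter (log2 fold change -0.97, adjusted p = 0.0082). By sex, 0 of these 26 were higher and 5 lower in females (median -0.27), and 6 were higher and 0 lower in males (median 0.53). The number higher over both sexes ranged from 0 to 5 over the alternatives, with 0 without CAST male replicate 1 or 2 or NZO female replicate 2.

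Part of the genes of endoplasmic reticulum stress and most of the ATF4 arm were higher in NZO, and in the comparison over both sexes none of either list was lower. Of 30 unfolded protein response genes, 13 were higher (43.3%, against 24.2% of all genes) and 17 not called, with a median of 0.40. Without CAST female replicate 4 the count was 16. Hspa5, the chaperone BiP, had 1333 to 3864 CPM in NZO libraries (median 2691) and 1341 to 2229 CPM in CAST libraries (median 1440), a log2 fold change of 0.72 ± 0.2 (adjusted p = 0.00713). The strains overlapped for Hspa5, since 1 NZO female library was below the lowest CAST library. Ern1, the sensor IRE1, was at 207 to 312 CPM in NZO libraries, against 113 to 173 CPM in CAST libraries without overlap (log2 fold change 0.76, adjusted p = 2.31e-05), and Ddit3, the transcription factor CHOP, at 17.7 to 34.3 CPM in NZO libraries, against 8.28 to 17.4 CPM in CAST libraries without overlap (log2 fold change 0.90, adjusted p = 0.00114). Dnajc3, a co-chaperone and inhibitor of the kinase PERK, was higher too (log2 fold change 0.88, adjusted p = 0.00059).

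Of 24 targets of ATF4, a transcription factor whose translation increases when eIF2α is phosphorylated, 16 were higher (66.7%) and 0 lower, with a median of 0.54 and 8 past 2-fold. Atf5, a related transcription factor, had 105 to 322 CPM in NZO libraries (median 233) and 49.2 to 107 CPM in CAST libraries (median 85.4), a log2 fold change of 1.47 ± 0.16 (adjusted p = 1.92e-06). NZO females were the highest group for Atf5, and 1 NZO male library lay within the CAST range. Atf4 itself had a fold change of 0.54 ± 0.1 (adjusted p = 0.000398). Trib3, a pseudokinase induced by CHOP, was at 6.16 to 31.1 CPM in NZO libraries, against 2.7 to 5.81 CPM in CAST libraries (log2 fold change 1.68, adjusted p = 0.000202), and Gdf15, a stress-induced cytokine, at 0.375 to 2.03 CPM in NZO libraries, against 0.211 to 0.539 CPM in CAST libraries (log2 fold change 1.86, adjusted p = 0.000328). The acinar-rich CAST female replicate 4 had the highest summed level of this list in CAST, 2050 CPM, against 929 to 1200 CPM in the other CAST libraries and 1650 to 2370 CPM in NZO. Without that library, 17 of the 24 were higher and 0 lower.

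Interferon response genes were mostly higher in NZO: of 43 tested, 35 were higher (81.4%, against 24.2% of all genes) and 4 lower, with a median of 1.26 and 25 of the higher ones past 2-fold. Interferons are antiviral cytokines whose receptors switch on a shared set of target genes. All NZO libraries were above all CAST libraries for 23 of the 43. The summed level of the list was 514, 428, 445 and 483 CPM in NZO females and 833, 685 and 909 CPM in NZO males, against 239 to 294 CPM in CAST. Ifih1 (ENSMUSG00000026896, chr2:62595798-62646255 in GRCm38), the sensor of viral double-stranded RNA MDA5, had 29.4, 24, 24.3 and 30.3 CPM in NZO females and 21.7, 29.9 and 28.2 CPM in NZO males, against 5.42, 5.54, 5.36 and 6.92 CPM in CAST females and 5.32, 4.83 and 4.32 CPM in CAST males, a log2 fold change of 2.32 ± 0.11 (adjusted p = 5.94e-11). The levels were even within each strain and did not overlap, and B6 libraries, at 21.8 to 33.9 CPM, were within or near the NZO range.

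Irf7, a transcription factor that amplifies the response, had 3.52 to 18.1 CPM in NZO libraries (median 4.93) and 0.976 to 1.69 CPM in CAST libraries (median 1.21), a log2 fold change of 2.51 ± 0.28 (adjusted p = 2.72e-06). The strains did not overlap for Irf7. Irgm1, an interferon-induced GTPase, was at 16.6 to 48 CPM in NZO libraries, against 4.91 to 6.42 CPM in CAST libraries (log2 fold change 2.20, adjusted p = 1.27e-07). Mx1, an antiviral GTPase, was at 17.1 to 75.7 CPM in NZO libraries, against 0.388 to 1.11 CPM in CAST libraries and 0.15 to 0.615 CPM in B6 (log2 fold change 6.11, adjusted p = 2.03e-08), and Mx2, its paralog, was lower at 0.0274 to 0.772 CPM in NZO libraries, against 2.74 to 7.28 CPM in CAST libraries (log2 fold change -4.54, adjusted p = 6.51e-07). Oas1a, an enzyme of the RNase L pathway, was higher (log2 fold change 3.47, adjusted p = 2.32e-09), while its paralog Oas1b was lower (log2 fold change -0.93, adjusted p = 0.000608). Usp18, which removes the ubiquitin-like protein ISG15 and restrains interferon signalling, was lower (log2 fold change -0.63, adjusted p = 0.0203). Near-identical paralogs such as the Oas1, Mx, Gbp and Ifit genes share reads, and the sources used here do not say how the authors assigned them, so the values of single members are uncertain.

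Promoters of the interferon list, whose members were chosen as interferon response genes, often held the repeat that factors activated by interferon are known to recognise. The 250 bases before the start of each gene were searched on both strands for GAAANNGAAA in RefSeq sequence of the C57BL/6J reference (GRCm38.p6), not in NZO or CAST sequence. A match was present for 17 of the 30 interferon list members with a promoter in the table (56.7%), for 14 of the 25 of these that were higher in NZO (56.0%), and for 402 of 12523 tested genes (3.21%); over all 27025 promoters it was 3.46%. The higher members made up 25 of the 30, so their share could differ little from that of all members. Whether the repeat sets apart the genes that differed cannot be told from these shares. The matches describe the letters only. The 5 stretches below show the repeat in capitals, on the strand of the gene and read 5′ to 3′ toward its start, for members that were higher in NZO; Isg15, Ifit3 and Gbp2 were chosen after their values and matches were seen. They come from chr5:120907526-120907585 (minus strand) for Oas1a, chr11:48871421-48871490 (minus strand) for Irgm1, chr4:156200835-156200936 (minus strand) for Isg15, chr19:34583333-34583456 (plus strand) for Ifit3 and chr3:142620564-142620653 (plus strand) for Gbp2. Where TTTC appears in capitals, the match is on the opposite strand.
Oas1a: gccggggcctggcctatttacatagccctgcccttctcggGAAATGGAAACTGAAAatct
Irgm1: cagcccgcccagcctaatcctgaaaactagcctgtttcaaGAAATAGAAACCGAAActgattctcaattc
Isg15: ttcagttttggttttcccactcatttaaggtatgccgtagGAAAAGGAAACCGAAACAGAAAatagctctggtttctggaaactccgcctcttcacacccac
Ifit3: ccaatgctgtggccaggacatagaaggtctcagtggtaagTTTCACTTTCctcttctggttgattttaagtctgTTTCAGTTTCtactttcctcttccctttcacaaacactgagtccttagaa
Gbp2: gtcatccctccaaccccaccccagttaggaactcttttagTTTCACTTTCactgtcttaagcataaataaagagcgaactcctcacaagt

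Beside these sequences, Isg15, the ubiquitin-like modifier, was at 0.774 to 3.81 CPM in NZO libraries, against 0.159 to 0.389 CPM in CAST libraries (log2 fold change 2.31, adjusted p = 3.25e-05). Gbp2, a guanylate-binding protein, was at 5.18 to 45.7 CPM in NZO libraries, against 1.92 to 3.64 CPM in CAST libraries (log2 fold change 2.26, adjusted p = 0.000528), and Ifit3, which binds foreign RNA through its complexes, at 1.02 to 7.97 CPM in NZO libraries, against 0.562 to 1.91 CPM in CAST libraries (log2 fold change 1.63, adjusted p = 0.00313). The strains did not overlap for Isg15 and Gbp2 and overlapped for Ifit3. For the ATF4 targets, the letters TGATGNAA, the form of an amino acid response element, were searched in the same way. They were found in 7 of 22 members with a promoter (31.8%), in 3 of the 14 that were higher in NZO (21.4%) and in 311 of the 12523 tested genes (2.48%). The promoters of Slc7a11, a cystine transporter, at chr3:50443614-50443719 (minus strand), and Chac1, a glutathione-degrading enzyme, at chr2:119351009-119351096 (plus strand), are given with the matches in capitals; both genes were chosen after their matches were seen.
Slc7a11: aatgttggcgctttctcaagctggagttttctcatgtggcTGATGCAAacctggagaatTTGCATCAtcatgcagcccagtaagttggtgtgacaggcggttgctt
Chac1: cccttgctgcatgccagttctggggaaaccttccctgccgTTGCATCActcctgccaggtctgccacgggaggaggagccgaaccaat
Slc7a11 had 2.07 to 5.5 CPM in NZO libraries (median 3.94) and 0.439 to 4.91 CPM in CAST libraries (median 0.589), a log2 fold change of 1.86 ± 0.49 (adjusted p = 0.00596), and Chac1 16.3 to 74.9 CPM in NZO libraries (median 35.9) and 4.79 to 29.6 CPM in CAST libraries (median 12), a log2 fold change of 1.46 ± 0.38 (adjusted p = 0.00668). The strains overlapped for both genes.

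MHC class I molecules present peptides cut by the proteasome to cytotoxic T cells, and interferon raises their genes. Of 22 class I and immunoproteasome genes, 18 were higher in NZO (81.8%) and 1 lower, with a median of 0.86. H2-K1 gave no call over both sexes (log2 fold change -0.08, adjusted p = 0.721). H2-Q2, a class I gene outside this list, was lower in NZO (log2 fold change -9.64, adjusted p = 4.6e-15). H2-D1 had 130 to 321 CPM in NZO libraries (median 142) and 28.6 to 43.2 CPM in CAST libraries (median 34.3), a log2 fold change of 2.34 ± 0.17 (adjusted p = 1.84e-08), with no overlap. H2-T22, a nonclassical member, was at 28 to 63.5 CPM in NZO libraries, against 3.81 to 5.71 CPM in CAST libraries (log2 fold change 3.10, adjusted p = 1.83e-11). The strains carry different alleles of these genes, and the sources used here do not say how reads from them were matched, so the level of a single class I gene is uncertain. B2m, the invariant light chain, had 82 to 276 CPM in NZO libraries (median 113) and 42 to 93.7 CPM in CAST libraries (median 51.6), a log2 fold change of 1.34 ± 0.21 (adjusted p = 8e-05). One CAST library, male replicate 3, reached the lower NZO values for B2m. Psmb8, a catalytic subunit of the immunoproteasome, was at 13.8 to 31.2 CPM in NZO libraries, against 4.03 to 8.72 CPM in CAST libraries without overlap (log2 fold change 1.83, adjusted p = 4.21e-07). H2-Q4 was the lower member over both sexes (log2 fold change -1.11, adjusted p = 0.002). In males alone 0 members of this list were called lower. The test of a sex difference in the strain effect missed the threshold for H2-Q4 (1.54, adjusted p = 0.059).

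**Figure D3:**
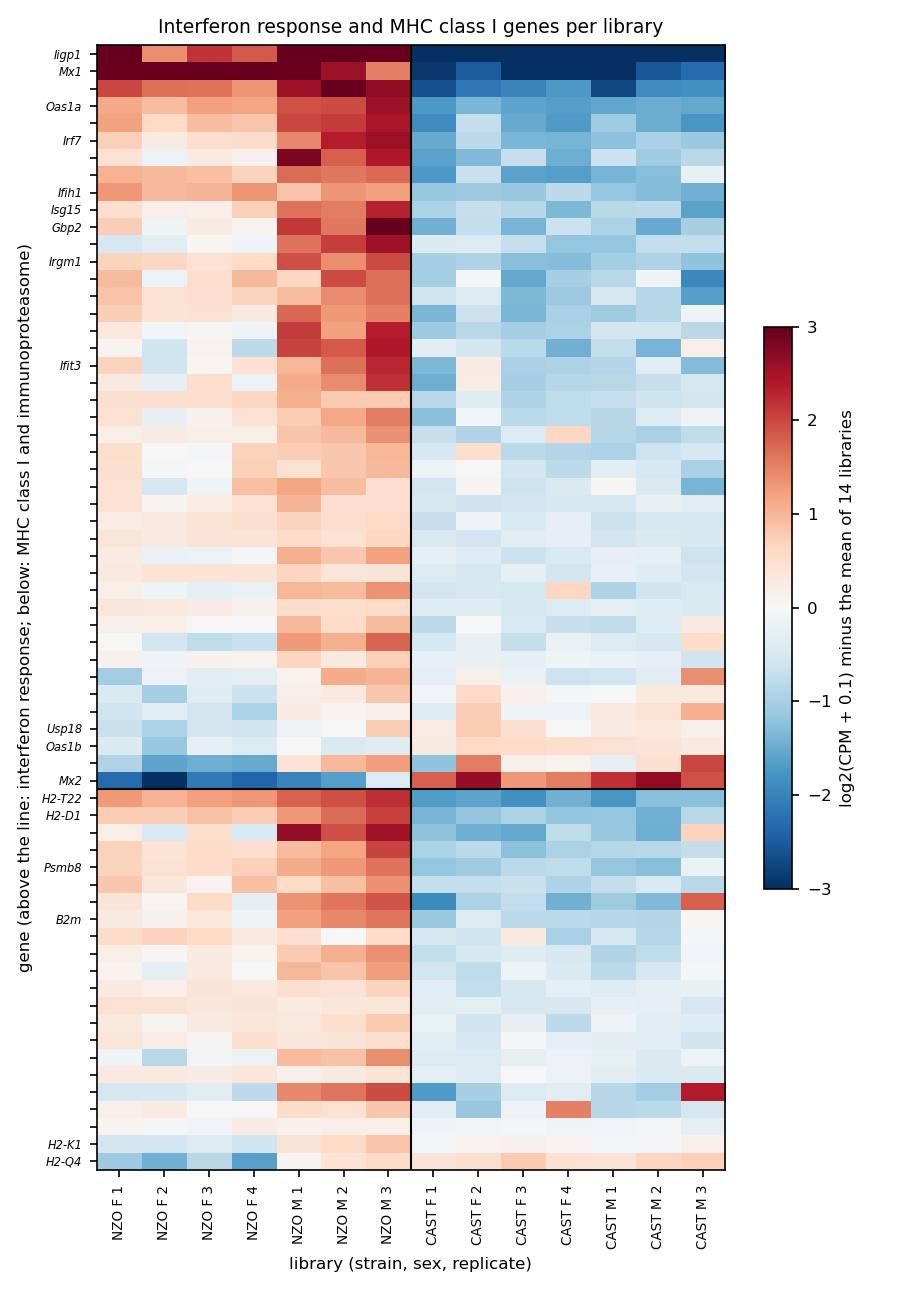
Level of each interferon response gene (above the black line) and MHC class I or immunoproteasome gene (below it) in each library, as log2(CPM + 0.1) minus the mean of the 14 libraries, in color from -3 to 3, with 7 NZO columns left and 7 CAST columns right; some rows named in the text are labelled. Most rows are higher across NZO, with the deepest values in the 3 NZO males, while Mx2, Oas1b and H2-Q4 run the other way in the comparison over both sexes.

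Markers of immune cells moved with some of these libraries. The summed level of 22 macrophage genes was 92.2 to 102 CPM in NZO females and 133, 237 and 391 CPM in NZO males, and in CAST it was 117 to 164 CPM in 6 libraries and 483 CPM in male replicate 3. Of these 22 genes, 4 were higher in NZO and 2 lower, and without NZO male replicate 3 these counts were 4 and 4. Adgre1, the macrophage antigen F4/80, was at 2.23 to 9.92 CPM in NZO libraries, against 1.13 to 2.06 CPM in CAST libraries (log2 fold change 1.35, adjusted p = 0.00262). Csf1r, the receptor of the macrophage growth factor, was lower (log2 fold change -0.77, adjusted p = 0.0168), though not without CAST male replicate 3 (adjusted p = 0.0548). The 22 lymphocyte genes gave 5 higher and 3 lower (4 and 1 without CAST female replicate 4), with sums of 5.15 to 30.9 CPM in NZO and 4.84 to 225 CPM in CAST. Cd3e, a subunit of the T cell receptor complex, was at 0.0221 to 0.461 CPM in NZO libraries, against 0 to 1.05 CPM in CAST libraries, being at 0 in 3 CAST libraries. Cd79a, of the B cell receptor, was lower in NZO (log2 fold change -2.82, adjusted p = 0.000108). Of 12 class II genes, 2 were higher and 0 lower, and 1 was higher and 0 lower without CAST female replicate 4. Interferon sums were 428 to 514 CPM in the 4 NZO females, whose macrophage sums lay below those of every CAST library. In the NZO males, with macrophage sums of 133, 237 and 391 CPM, interferon sums were 833, 685 and 909 CPM. In CAST they were 239 to 294 CPM. The part of immune cells in the interferon difference was not tested. Without NZO male replicate 3, 34 interferon genes were higher and 6 lower, and without it and CAST female replicate 4, 35 and 4.

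Vessel genes were more often higher than lower in NZO. Of 14 genes of pericytes, the cells that wrap capillaries, 9 were higher (64.3%) and 0 lower, with a median of 0.67 and sums of 614 to 1120 CPM in NZO against 200 to 331 CPM in CAST. Rgs5 (ENSMUSG00000026678, chr1:169655501-169695813 in GRCm38), a regulator of G protein signalling that marks pericytes, had 418, 420, 372 and 353 CPM in NZO females and 486, 496 and 654 CPM in NZO males, against 52.7, 80.2, 54.8 and 59.6 CPM in CAST females and 80.4, 68.5 and 69.2 CPM in CAST males, a log2 fold change of 2.77 ± 0.12 (adjusted p = 3.3e-11). All NZO libraries were above all CAST libraries, and B6 libraries had 123 to 180 CPM. Pdgfrb, the receptor that recruits pericytes, was at 40.7 to 75.2 CPM in NZO libraries, against 20.5 to 30.7 CPM in CAST libraries (log2 fold change 1.07, adjusted p = 5.16e-07), and Notch3 at 68.5 to 115 CPM in NZO libraries, against 35.8 to 53.3 CPM in CAST libraries (log2 fold change 0.89, adjusted p = 1.88e-06). Acta2, smooth muscle actin, gave no call (log2 fold change 0.48, adjusted p = 0.391) unless CAST female replicate 4 was left out (adjusted p = 0.0498). Without the 2 libraries that stood apart, 10 pericyte genes were higher and 0 lower.

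Of 20 endothelial genes, 13 were higher (65.0%) and 0 lower, with a median of 0.36 and sums of 1170 to 1440 CPM in NZO against 806 to 1080 CPM in CAST. With library totals 9 were higher. Kdr, the main receptor of VEGF-A, was at 230 to 313 CPM in NZO libraries, against 129 to 223 CPM in CAST libraries (log2 fold change 0.82, adjusted p = 2.37e-05), and Cdh5, the adhesion protein of endothelial junctions, at 51.4 to 84 CPM in NZO libraries, against 32.2 to 43.1 CPM in CAST libraries (log2 fold change 0.72, adjusted p = 2.9e-05). Vegfa, the ligand made by beta cells, gave no call (log2 fold change -0.05, adjusted p = 0.765). Of 29 fibroblast and matrix genes, 11 were higher and 1 lower (9 and 1 without NZO male replicate 3). The higher ones included Fn1, fibronectin (log2 fold change 2.15, adjusted p = 7.26e-05), and Postn, periostin (log2 fold change 2.36, adjusted p = 2.03e-06), while Col1a1, the main fibrillar collagen, gave no call (log2 fold change 0.01, adjusted p = 0.988). Of 18 duct genes, 7 were higher and 1 lower, with Krt7, a keratin, at 170 to 314 CPM in NZO libraries, against 78 to 109 CPM in CAST libraries (log2 fold change 1.14, adjusted p = 2.76e-06) and no call for Krt19 (log2 fold change 0.15, adjusted p = 0.815). Duct genes gave 4 higher and 2 lower in females alone (median -0.09), and 10 higher and 1 lower in males alone (median 1.28). Over both sexes, Schwann cell genes gave 2 higher and 3 lower of 12.

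**Figure D4:**
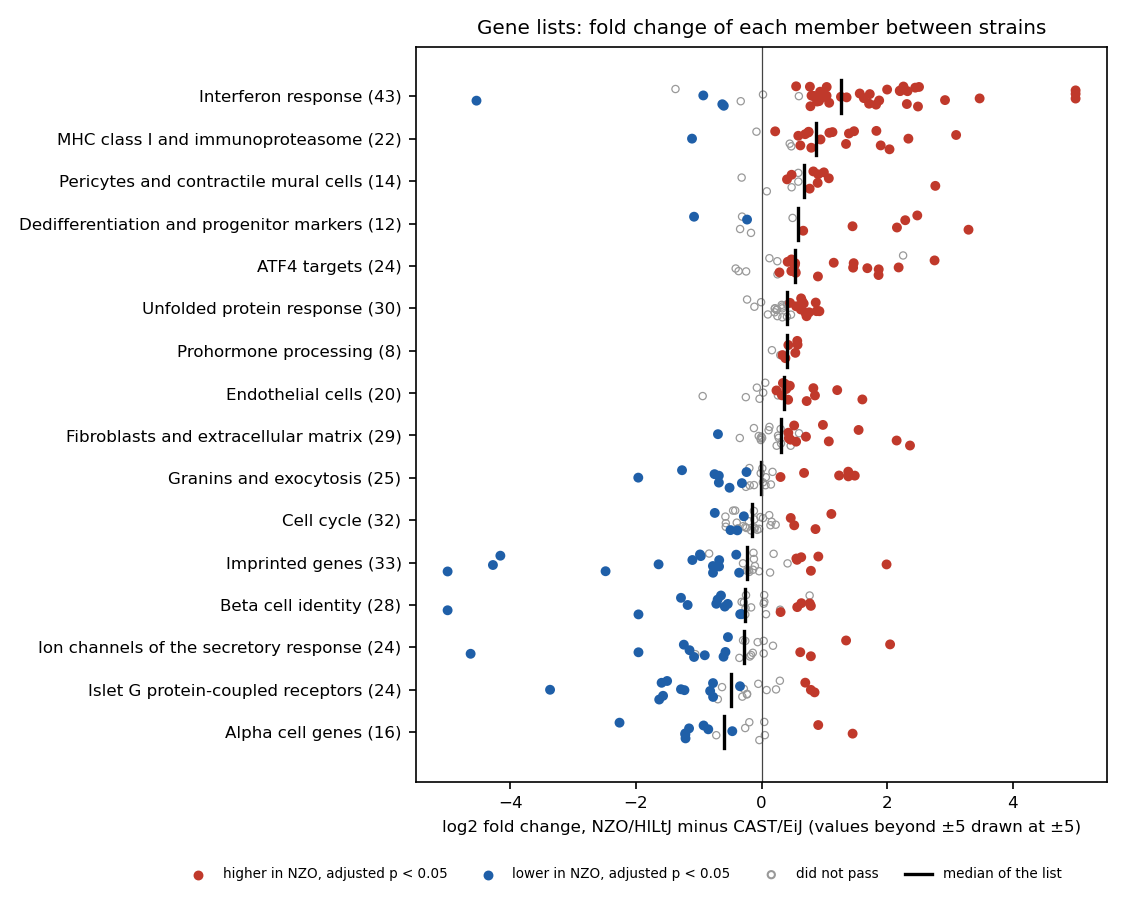
Log2 fold change, NZO over CAST, of each gene in 16 lists (horizontal axis; values beyond 5 drawn at 5), with calls at adjusted p under 0.05 in red (higher in NZO) or blue (lower), other genes open, and the median as a bar; the number of genes tested is in parentheses. Interferon and MHC class I genes lie mostly right of 0 (medians 1.26 and 0.86), and alpha cell and receptor genes mostly left (medians -0.59 and -0.49).

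Growth and cell cycle genes showed no common direction. Of 32 cell cycle genes, 4 were higher and 4 lower, with 0 to 10 lower over the alternatives (8 without NZO male replicate 3), and Mki67, a marker of cycling cells, gave no call (log2 fold change -0.24, adjusted p = 0.332). Cdk6, a kinase that drives entry into S phase, was lower in NZO at 1.93 to 5.84 CPM in NZO libraries, against 10.7 to 16.3 CPM in CAST libraries (log2 fold change -1.97, adjusted p = 9.49e-08). E2f1 and E2f2, transcription factors of that step, were higher (0.70, adjusted p = 0.000142, and 1.17, adjusted p = 3.48e-05). Cdkn1a, the inhibitor p21, was higher as well (log2 fold change 0.93, adjusted p = 0.00272), and Cdkn2c, the inhibitor p18, was lower (log2 fold change -0.92, adjusted p = 9.56e-05). In insulin and IGF signalling, 7 of 22 genes were higher and 4 lower. Igf2, an imprinted growth factor, was at 10.7 to 18.6 CPM in NZO libraries, against 1.85 to 7.5 CPM in CAST libraries (log2 fold change 1.99, adjusted p = 3.53e-06), and Irs1, an adaptor of the insulin receptor, was lower at 8.56 to 18.4 CPM in NZO libraries, against 22.8 to 41.2 CPM in CAST libraries (log2 fold change -1.02, adjusted p = 4.05e-05). Insr itself was higher (log2 fold change 0.57, adjusted p = 0.000139).

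Imprinted genes, expressed from 1 parental copy, were lower in NZO for 14 of 33 and higher for 6 (median -0.23), 6 of the lower ones past 2-fold. Nnat, neuronatin, which assists signal peptidase in beta cells of mice, was at 2.97 to 11.1 CPM in NZO libraries, against 103 to 191 CPM in CAST libraries (log2 fold change -4.28, adjusted p = 1.37e-11), and B6 libraries had 11 to 37.4 CPM. Magel2, Ndn and Dlk1 were lower too, with fold changes of -6.01 ± 0.4, -1.64 ± 0.13 and -4.16 ± 0.3 (adjusted p = 1.01e-08, 3.3e-08 and 2.66e-08). None of these 4 genes overlapped between strains. Of 18 genes at loci linked to obesity and diabetes in NZO, 3 were higher and 7 lower. Pctp, a phosphatidylcholine transfer protein encoded at one of them, was among the lower (log2 fold change -0.52, adjusted p = 0.000303; with library totals, adjusted p = 0.118). Tbc1d1 and Zfp69, both named as candidate genes at such loci, gave no call (-0.10, adjusted p = 0.455, and -0.28, adjusted p = 0.188).

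Metabolic genes differed one by one. In glucose uptake and glycolysis, 10 of 29 were higher and 10 lower: Gapdh was higher (log2 fold change 1.11, adjusted p = 2.14e-06), whereas the brain-type enzymes Aldoc and Eno2 were lower (-1.67, adjusted p = 2.99e-09, and -1.03, adjusted p = 3.93e-07). Of 37 nuclear genes of oxidative phosphorylation, 9 were higher and 1 lower, with 4 to 17 higher over the alternatives and 14 without CAST female replicate 4. Of 15 mitochondrially encoded genes, 1 was higher and 7 lower; the higher one, mt-Co2, was at 686 to 1457 CPM in NZO libraries, against 2.63 to 7.9 CPM in CAST libraries (log2 fold change 7.78, adjusted p = 1.28e-11), while its partner mt-Co1 gave no call (log2 fold change 0.06, adjusted p = 0.748). The sources used here do not say how reads carrying CAST bases were matched to the reference, and its part in the mt-Co2 value was not tested. Antioxidant genes gave 11 higher and 8 lower of 29, with Hmox1, heme oxygenase 1, higher at 10.3 to 18.4 CPM in NZO libraries, against 4.78 to 6.2 CPM in CAST libraries (log2 fold change 1.25, adjusted p = 4.31e-07). Cholesterol synthesis gave 6 higher and 5 lower of 24, and fatty acid synthesis 4 higher and 6 lower of 19. There Elovl2, which elongates polyunsaturated fatty acids, was higher at 76.9 to 98.3 CPM in NZO libraries, against 28.1 to 39.2 CPM in CAST libraries (log2 fold change 1.47, adjusted p = 7.55e-10) and Scd2, a desaturase, lower at 131 to 311 CPM in NZO libraries, against 370 to 712 CPM in CAST libraries (log2 fold change -1.09, adjusted p = 0.000286).

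Large differences were also present in genes outside these lists. Adh1, an alcohol and retinol dehydrogenase, had 134 to 213 CPM in NZO libraries (median 147) and 1.2 to 2.72 CPM in CAST libraries (median 1.77), a log2 fold change of 6.45 ± 0.22 (adjusted p = 5.78e-12), with 59.9 to 92.6 CPM in B6. Pon2, a lactonase, had 23.5 to 39 CPM in NZO libraries (median 26.1) and 0.989 to 1.59 CPM in CAST libraries (median 1.23), a log2 fold change of 4.48 ± 0.13 (adjusted p = 5.63e-13), with 22.3 to 29.5 CPM in B6. Both thus had NZO and B6 levels well above those of CAST. Kcnip1, a potassium channel interacting protein, was at 47 to 73.8 CPM in NZO libraries, against 1.36 to 6.11 CPM in CAST libraries (log2 fold change 4.45, adjusted p = 2.47e-08), and Pigr, the polymeric immunoglobulin receptor, at 43.9 to 70.1 CPM in NZO libraries, against 2.94 to 8.42 CPM in CAST libraries (log2 fold change 3.82, adjusted p = 1.4e-08). In the other direction, Car15, a carbonic anhydrase, was at 4.77 to 18.8 CPM in NZO libraries, against 345 to 815 CPM in CAST libraries (log2 fold change -5.65, adjusted p = 7.89e-10), and Fam84a at 5.1 to 9.03 CPM in NZO libraries, against 137 to 456 CPM in CAST libraries (log2 fold change -5.44, adjusted p = 7.91e-10). Nebl, nebulette, was at 3.97 to 5.09 CPM in NZO libraries, against 86.1 to 146 CPM in CAST libraries (log2 fold change -4.59, adjusted p = 3.71e-13), and Gpr155 at 6.03 to 7.86 CPM in NZO libraries, against 121 to 201 CPM in CAST libraries (log2 fold change -4.46, adjusted p = 3.48e-13). Levels of Car15, Fam84a, Nebl and Gpr155 in NZO did not reach those of CAST in any library.

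Members of gene families with near-identical copies gave differences of this size too, and these are uncertain because the counting could split reads between copies. Amy2a3, an amylase gene, was for example at 6272 to 32671 CPM in NZO libraries, against 0.0208 to 16.6 CPM in CAST libraries. Amy2b was at 75.7 to 393 CPM in NZO libraries, against 128 to 160929 CPM in CAST libraries. Rpl17, a ribosomal protein gene, was at 3.81 to 8.59 CPM in NZO libraries, against 187 to 304 CPM in CAST libraries. Rpl9 was at 11 to 20 CPM in NZO libraries, against 210 to 352 CPM in CAST libraries, while Rpl3 gave no call (log2 fold change -0.05, adjusted p = 0.772). Over the whole list of 31 ribosomal protein genes, 2 were higher and 3 lower. Without CAST female replicate 4 these counts were 10 and 2, and without NZO male replicate 3 as well they were 9 and 5. By kind of gene, the share past 2-fold was 16.5% of 15588 protein-coding genes, 35.1% of 2607 long non-coding or unclassified transcripts and 44.9% of 581 pseudogenes.

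Some genes were near or at 0 in 1 strain. At under 0.1 CPM in every CAST library and over 1 CPM in every NZO library were 19 genes, of which 9 carried established symbols and 17 were over 1 CPM in every B6 library. They included 2 interferon-induced GTPases, Iigp1 at 3.45 to 105 CPM in NZO libraries, against 0 to 0.0268 CPM in CAST libraries, and Tgtp2 at 1.96 to 18.9 CPM in NZO libraries, against 0 CPM in every CAST library. Tmem254b was at 10.9 to 15.4 CPM in NZO libraries, against 0 to 0.0417 CPM in CAST libraries, and Olfm4, olfactomedin 4, at 5.86 to 16.5 CPM in NZO libraries, against 0 to 0.0906 CPM in CAST libraries. The converse held for 23 genes, 10 with established symbols and 3 over 1 CPM in every B6 library. Among these, H2-Q2, a class I gene, was at 0.0274 to 0.0993 CPM in NZO libraries, against 42.5 to 59.1 CPM in CAST libraries, and Nmbr, a receptor of bombesin-like peptides, at 0.0215 to 0.0772 CPM in NZO libraries, against 5.56 to 18 CPM in CAST libraries. Zfp607 was at 0 to 0.0323 CPM in NZO libraries, against 3.62 to 6.55 CPM in CAST libraries, and Kcnmb3, a channel subunit, at 0 to 0.029 CPM in NZO libraries, against 1.38 to 4.08 CPM in CAST libraries. Absence here means below the stated level in these counts, and whether reads from a diverged copy were left unassigned was not tested. No deposited gene was at exactly 0 in more than 22 libraries of the series. Genes at 0 in all NZO and all B6 libraries are therefore missing from the 23, whereas genes at 0 only in CAST could be among the 19. Of the genes past 2-fold, B6 was nearer to NZO for 1206 of the 1857 that were higher (64.9%) and for 1168 of the 1919 that were lower (60.9%), on the scale of log2(mean CPM + 0.1).

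Strain differences were called at similar rates within each sex. In females, 3389 genes were higher in NZO (18.0%) and 3149 lower (16.7%), and in males 3452 were higher (18.3%) and 3091 lower (16.4%). Scaling by library totals gave 3536 higher and 1222 lower in females, where the median over all genes became 0.27. In males it gave 1717 higher and 1951 lower, and the median became -0.18. Of 4484 genes called in both sexes, 4475 had the same direction and 9 the opposite. The test of whether the strain difference itself differed between sexes called 4 genes (0.0212%), with 1997 at an unadjusted p under 0.05. H2-K1, a classical class I gene, was lower in NZO females (-0.59 ± 0.1) and higher in NZO males (0.61 ± 0.12), at 46.9, 45.9, 51.2 and 45.5 CPM in NZO females and 90.8, 103 and 121 CPM in NZO males, against 65.2, 73.8, 74.4 and 72.6 CPM in CAST females and 66.2, 65.3 and 75.8 CPM in CAST males. Ly6a, the interferon-induced surface protein Sca-1, had fold changes of 0.42 ± 0.16 in females and 2.17 ± 0.19 in males. Arhgap36, of a family of GTPase-activating proteins, had -3.09 ± 0.2 in females and -1.11 ± 0.22 in males, and Pfkp, the platelet form of phosphofructokinase, -0.18 ± 0.095 and -1.20 ± 0.11. The count of 4 ranged from 0 to 48 over fits that left out 1 library. It was 0, with 988 at an unadjusted p under 0.05, when the number series of the sample codes was added as a factor, where the lowest adjusted p among these 4 genes was 0.0921. Sex and series are partly entangled in NZO, whose females carry codes of series 76 and 80 and whose males carry codes of series 76 and 89, while CAST of each sex includes all 3 series. What the series stands for is not stated.

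The lists had these values by sex, with no test of the lists' difference between sexes. For the interferon genes, 24 of 43 were higher and 6 lower in females (median 0.81), and 36 were higher and 1 lower in males (median 1.79). For MHC class II, 0 were higher and 1 lower in females (median -0.10), and 7 were higher and 0 lower in males (median 1.04). For the unfolded protein response, 7 were higher and 1 lower in females (median 0.21), and 15 were higher and 0 lower in males (median 0.72). The macrophage sums given above were also higher in each NZO male than in any NZO female, and their part in these values was not tested. Immediate early genes, induced within minutes of stimulation or handling, gave 0 higher and 9 lower in females and 6 higher and 1 lower in males of 19. Atf3, one of these and an ATF4 target, had -2.15 ± 0.41 in females (adjusted p = 0.0015) and 2.15 ± 0.47 in males (adjusted p = 0.0039). The test of the difference between sexes missed the threshold for Atf3 (4.29 ± 0.62, adjusted p = 0.059), and with the series of the sample codes in the fit it gave 3.82 (adjusted p = 0.372).

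**Figure D5:**
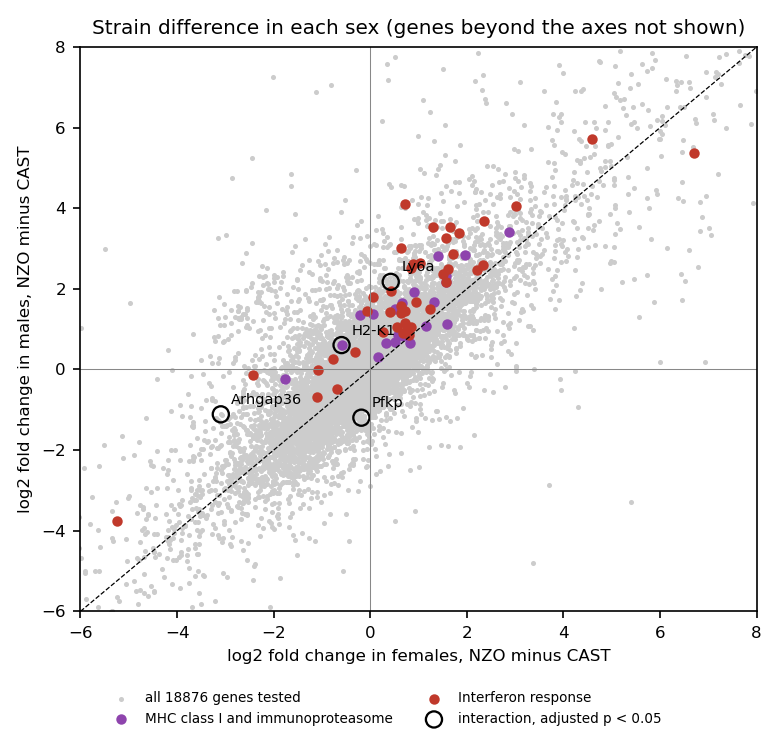
Log2 fold change, NZO over CAST, in females (horizontal) and in males (vertical) for the 18876 genes tested (those beyond the axes not drawn), with interferon genes in red, MHC class I genes in purple, and a ring around the 4 genes with an interaction at adjusted p under 0.05; the dashed line marks equal change. The interferon list has a median of 1.79 in males and 0.81 in females.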

How the data were processed

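The series measured polyadenylated RNA of mouse islets by 150 bp paired-end sequencing per the labels' protocols. The authors deposited estimated counts for 22904 genes in 45 libraries, of which 23.6% were not whole and were rounded here. No deposited gene was at exactly 0 in more than 22 libraries, so genes confined to fewer libraries are not covered. The submitters' processing notes name GRCm38 and DESeq2; for the aligner, the counting, the use of strand and any allowance for strain variants, nothing is stated in the sources used here. CAST is more distant than NZO from the C57BL/6J reference, and whether this lowered CAST counts was not tested. The deposited log2-scale variance-stabilised values were used only in 1 alternative.

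Counts of the 14 libraries were scaled by TMM and filtered by filterByExpr over the 4 groups of strain and sex, which left 18876 genes. They were fitted in edgeR 4.0.16 (R 4.3.3) with robust quasi-likelihood dispersions, with sex and strain as terms for the mean difference and with the 4 groups for each sex and the interaction. P-values were adjusted by Benjamini-Hochberg over all genes tested and called under 0.05. The SE is the absolute log2 fold change divided by the square root of F. Replicate numbers pair no libraries, but the labels' codes fall into number series (76, 80 and 89), each with libraries of both strains. What a series stands for is not stated, and a fit with the series as a factor was an alternative. Shares of counts were tested by exact permutation within sex. Alternatives used limma 3.58.1, DESeq2 1.42.0, other scalings and filters, and left out each library. Of these, limma on the deposited values, the fit without both CAST female replicate 4 and NZO male replicate 3, the series as a factor within each sex and in the interaction, and the list counts under each alternative were chosen after seeing the data. In counts simulated from the mean levels and totals of these libraries for 18357 genes, the fit recovered 87.8% of the 98 genes changed by a log2 of 1. It recovered 100% of the 97 changed by 2, and called 9 unchanged genes. The simulation used a single dispersion, the same mean profile for every library, no sex effect, and few changes, set equally up and down. It held no acinar-rich library, so the error rates of the real comparison were not tested.

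The gene lists, and the comparison itself, were chosen with earlier results of these data known. The text names the first genes of each list, those with the lowest adjusted p in each direction, the genes with the largest called differences, those absent in 1 strain, and those with the lowest interaction p. Isg15, Ifit3, Gbp2, Slc7a11, Chac1 and Mx1 fall outside this rule and were chosen after their values were seen. Some genes that the rule would name are not reported here. 41 symbols that occur more than once were left out of the lists. Counting error alone sets the level of 3 counts.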

Additional observations from a re-analysis of the deposited data

Results flagged for a closer look

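In 70 sets of 7 libraries of 1 strain, Dixon's ratio was used to look for a library far from the rest. The nominal rate was about 5% per set. The sets are not independent, since the 3 shares of a library are parts of the same total, so the count of flags was not tested against this rate. Such a library was found in 11 sets. CAST female replicate 4 was far from the other CAST libraries in 4 of them: it had the lowest insulin share, 4.1%, the highest acinar share, 53.5%, the lowest mitochondrial share, 1.21%, and the highest summed level of ATF4 targets, 2050 CPM. NZO male replicate 3 was far from the other NZO libraries in 4 as well, with the highest summed level of fibroblast and matrix genes, 4310 CPM, the lowest Slc2a2, 264 CPM, the lowest Glp1r, 80.7 CPM, and the highest Pon2, 39 CPM. CAST female replicate 1 had the lowest sum of fibroblast and matrix genes in CAST, 1410 CPM. CAST male replicate 3 had the highest sum of macrophage genes in CAST, 483 CPM, and NZO male replicate 1 the lowest Npy in NZO, 0.118 CPM.

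The strain difference differed between sexes, as males minus females, for 4 genes: Arhgap36 by 1.98 (adjusted p = 0.031), H2-K1 by 1.20 (adjusted p = 0.0199), Ly6a by 1.75 (adjusted p = 0.0265) and Pfkp by -1.01 (adjusted p = 0.0265), all on the log2 scale in edgeR's quasi-likelihood test. None of them was called with the series of the sample codes as a factor.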

How the results depend on the processing

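Over 26 alternatives, 175 of the 186 followed genes that were called stayed called in each, 11 lost the call somewhere, 8 of them with library totals, and none of the 226 reversed while called. Many followed genes were named for low p or large differences in these same data, so these counts do not describe all calls. With library totals, 64.4% of the 9050 calls over all genes were kept. The number of genes that differed was 9050 and became 5982 with library totals (3660 higher, 2322 lower), where the TMM factor of 0.491 in the acinar-rich CAST library is not applied. In males that scaling gave 3668. It lay between 8300 and 9335 when 1 library was left out, 9263 without both CAST female replicate 4 and NZO male replicate 3, 9638 with DESeq2 and 10858 with all 45 libraries. A filter of at least 1 CPM in 7 libraries gave 1771 genes past 2-fold instead of 3776, from fewer genes tested (13740). For the interaction, library totals gave 0 genes, DESeq2 187, limma-trend 11, and all 45 libraries 16; leaving out 1 library gave 0 to 48, with 48 without NZO male replicate 1 and 0 without CAST female replicate 2, 3 or 4, CAST male replicate 1 or 2, or NZO female replicate 2 or 4. The cause was not tested. The insulin share difference ranged from -0.978 to 0.549 points with 1 library left out and was -0.386 without acinar and mitochondrial genes in the total; the acinar share difference ranged from -7.66 to 0.942. Among the lists, the higher genes of oxidative phosphorylation ranged from 4 to 17, of MHC class II from 0 to 5 and of ribosomal proteins from 2 to 10, and the lower mitochondrially encoded genes from 2 to 8 and lower cholesterol genes from 1 to 7. No paired analysis was possible because replicate numbers follow accession order within a group and pair no libraries. The series of the sample codes was instead added as a factor, which called 9267 genes, 3791 of them past 2-fold, and 0 for the interaction. Low counts limit precision below about 0.0627 CPM in the shallowest scaled library, and floors cover counting error only.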
